A study of Mus musculus with 4 samples.

Results

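The genes described here hold the cell cycle back: 5 inhibitors of cyclin-dependent kinases (CDKs), 4 anti-proliferative genes of the BTG/TOB family and the atypical cyclin gene Ccng2. They were taken by gene symbol, and all 10 were found among the 56691 genes listed, each under a single identifier. Poly(A) RNA of Ter119+ cells from mouse bone marrow was sequenced in 2 libraries with floxed Med16 (Med16 fl/fl) and 2 libraries with Med16 knocked out (Med16 KO), and every library carries a time of 3 weeks, which the labels do not explain further. Med16 encodes a tail subunit of Mediator, which carries signals from transcription factors to RNA polymerase II, and Ter119 is an erythroid surface antigen. The labels do not give the Cre driver, the deleted exons, the age or whether the replicates are different animals, so the p values rest on a spread that may be technical only.

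A cell leaves the cycle when CDK activity falls below what is needed to inactivate the retinoblastoma proteins. The CIP/KIP inhibitors p21, p27 and p57 bind cyclin and CDK complexes, above all those with CDK2, whereas the INK4 inhibitors p18 and p19 bind CDK4 and CDK6 and keep D-type cyclins off them. BTG and TOB proteins share an N-terminal domain that binds the deadenylases of the CCR4-NOT complex, and they slow growth through mRNA decay and transcription. In the marrow, erythroblasts divide a few times with ever shorter cycles and then stop before the nucleus is expelled, and p27 and p18 are known to take part in that stop.

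Total counts assigned to genes were 6749196 to 7216333 per library. Genes with at least 1 count numbered 18947 and 19016 in fl/fl and 16892 and 16479 in KO. This difference between libraries goes with genotype, and its part in the results was not tested. The targeted gene, Med16, had 164 and 127 counts in fl/fl against 16 and 30 in KO, as labelled. The erythroid markers were abundant: the 12 summed to 196603 to 196749 CPM in fl/fl and 186536 to 197583 CPM in KO (CPM, counts scaled to library size with TMM factors), and the genotypes overlapped. Most of that sum was globin: Hbb-bs had means of 72919 and 64771 CPM in fl/fl and KO, and Hba-a1 65970 and 76289 CPM. Of the 12 markers, 8 were called lower and 3 higher. Slc4a1, which encodes the band 3 anion exchanger of the red cell membrane, had 13249 and 13334 CPM in fl/fl and 10095 and 9975 CPM in KO. Tfrc, Epb42 and Ermap were also called lower, at -1.02, -0.73 and -0.69 on the log2 scale. Alas2, the first enzyme of erythroid heme synthesis, was called higher by 0.13. The near-identical alpha globin genes Hba-a1 and Hba-a2, whose reads may be split, were higher by 0.21 and 0.44. Markers of other cell types also differed: the 12 neutrophil markers summed to 13857 to 14014 CPM in fl/fl and 19734 to 20139 in KO, and 12 of 12 were called higher. The 10 megakaryocyte and platelet markers summed to 85.0 to 92.3 and 206 to 208 CPM, with 8 of 9 tested called higher and Gp1bb at 0 in all libraries. The 10 monocyte and macrophage markers summed to 2238 to 2293 and 3123 to 3158 CPM (4 called higher, 1 lower, median log2 fold change -0.004). Lyz2 made up most of that sum, with a mean of 1702 CPM in fl/fl and 2458 CPM in KO. The 8 endothelial and stromal markers summed to 270 to 273 and 444 to 481 CPM (3 of 5 tested called higher). The 10 B cell markers summed to 254 to 264 and 249 to 250.2 CPM (1 called higher, 0 lower). The 9 T and NK cell markers summed to 35.8 to 37.7 and 49.0 to 49.3 CPM, with 0 of 5 tested called in either direction. Most of that sum was Nkg7, with means of 29.3 and 37.4 CPM. The 7 eosinophil, basophil and mast cell markers summed to 801 to 863 and 865 to 869.5 CPM (1 called higher, 1 lower). In bulk samples a lower level per cell and fewer cells of a type cannot be told apart, and the part of these other cells in the results below was not tested.

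Of the 10 genes, 9 had counts high enough to be tested, and 4 were lower in Med16 KO: the CIP/KIP gene Cdkn1b, the INK4 genes Cdkn2c and Cdkn2d, and Btg2. None was called higher (edgeR quasi-likelihood test, two-sided, Benjamini-Hochberg adjustment over 13052 genes, called at an adjusted p under 0.05). Over all genes tested, 9.89% were called lower and 8.5% higher, so the 4 of 9 called lower stood above that share. The 4 lay at percentiles 93.2 to 97.9 of mean CPM, and the share called among genes as abundant was not computed. The members were also chosen with earlier results of these data known, so no conclusion is drawn from the excess. If a biological coefficient of variation of 0.2 is assumed for every gene, with a likelihood ratio test, none of the 4 is called. The estimated 0.125 is the common value over all genes, whereas the main test estimated a spread for each gene. The step from 0.125 to 0.2 need not be the step for these 4 genes. The median log2 fold change over the 9 genes was -0.01, against 0.02 over all genes tested, because the called falls stood beside 4 genes with positive values. Libraries of the genotypes did not overlap in CPM for 7 of the 9, 4 with KO lower and 3 with KO higher, where 28.2% and 29.4% of all genes tested did so.

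**Figure D1:**
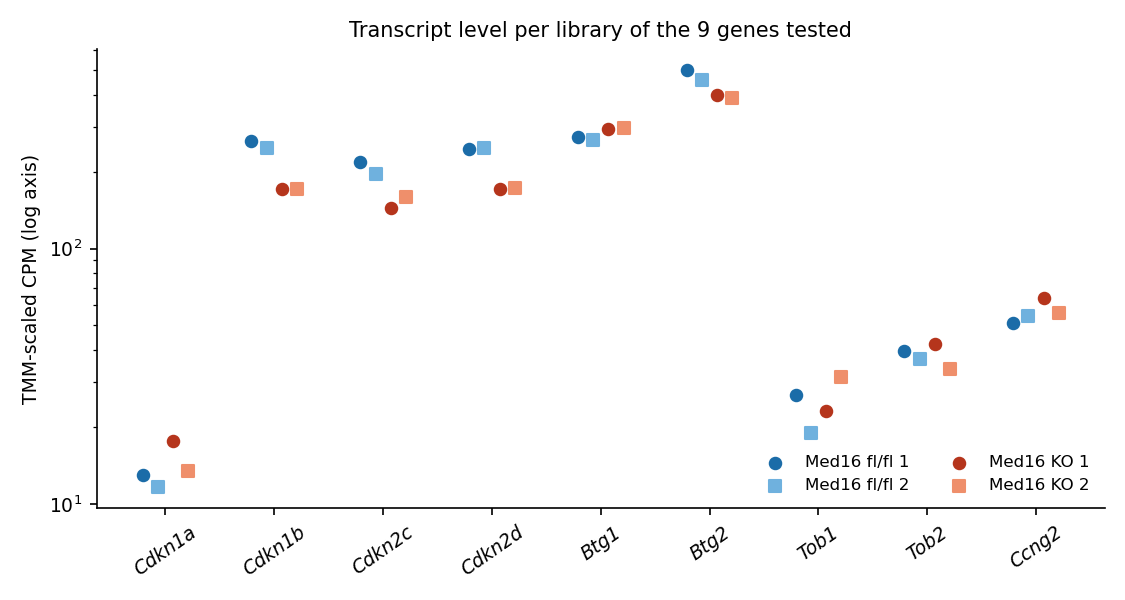
TMM-scaled CPM (log axis) of the 9 genes tested, with 1 point per library: circles and squares are replicates 1 and 2, blue is Med16 fl/fl and red is Med16 KO. Cdkn1b, Cdkn2c, Cdkn2d and Btg2 lie lower in both KO libraries, and the Tob1 and Tob2 points of the genotypes overlap.

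The upstream windows of the 4 genes that fell are shown with that of Btg1, the close relative of Btg2 that did not fall, because the first 4 were all called lower. Each is the 250 bases before the RefSeq start, 5′ to 3′, from build GRCm38.p6. This is another build than the GRCm39 of the counts, and windows were matched by symbol. Capitals mark matches, on either strand, to the TATA box TATAAA, the CCAAT box, the GC box GGGCGG, the KLF element CCACNCCC, the GATA element AGATAA, the FOXO element TGTTTAC, the E2F element TTTNNCGC, the E-box CACGTG and the cAMP response element TGACGTCA, where GC box and KLF matches may overlap.
Cdkn1b: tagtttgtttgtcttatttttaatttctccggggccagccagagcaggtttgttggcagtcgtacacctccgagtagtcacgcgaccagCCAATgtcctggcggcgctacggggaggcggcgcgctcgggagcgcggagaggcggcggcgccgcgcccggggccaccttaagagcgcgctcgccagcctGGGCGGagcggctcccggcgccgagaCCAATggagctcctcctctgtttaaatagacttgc
Cdkn2c: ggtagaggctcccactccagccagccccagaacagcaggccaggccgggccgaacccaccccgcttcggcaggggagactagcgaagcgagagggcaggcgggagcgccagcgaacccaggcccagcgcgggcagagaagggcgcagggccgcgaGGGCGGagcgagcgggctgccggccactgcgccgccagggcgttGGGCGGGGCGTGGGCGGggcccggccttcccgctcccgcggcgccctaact
Cdkn2d: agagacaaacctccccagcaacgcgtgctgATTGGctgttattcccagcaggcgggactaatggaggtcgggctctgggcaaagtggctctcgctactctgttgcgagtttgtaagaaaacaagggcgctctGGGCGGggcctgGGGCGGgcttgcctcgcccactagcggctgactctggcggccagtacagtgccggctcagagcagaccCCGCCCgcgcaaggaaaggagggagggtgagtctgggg
Btg2: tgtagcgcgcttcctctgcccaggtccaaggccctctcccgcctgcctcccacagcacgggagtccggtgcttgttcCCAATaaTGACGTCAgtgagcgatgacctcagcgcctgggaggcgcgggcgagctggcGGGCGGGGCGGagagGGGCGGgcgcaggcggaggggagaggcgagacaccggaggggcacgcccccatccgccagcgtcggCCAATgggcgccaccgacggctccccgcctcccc
Btg1: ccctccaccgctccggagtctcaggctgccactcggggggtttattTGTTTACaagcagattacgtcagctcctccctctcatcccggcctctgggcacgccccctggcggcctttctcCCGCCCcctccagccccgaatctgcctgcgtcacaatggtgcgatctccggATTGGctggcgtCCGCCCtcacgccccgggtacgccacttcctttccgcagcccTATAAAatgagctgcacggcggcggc
The windows lie at chr6:134920151-134920400, plus strand (Cdkn1b), chr4:109666757-109667006, minus strand (Cdkn2c, the first of 2 listed starts), chr9:21291210-21291459, minus strand (Cdkn2d), chr1:134079156-134079405, minus strand (Btg2) and chr10:96616751-96617000, plus strand (Btg1).

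The windows of the genes that fell were rich in G and C, at 64.4% for Cdkn1b, 77.2% for Cdkn2c, 63.6% for Cdkn2d and 73.2% for Btg2, where the median of all 32851 windows in the table was 52.4%. The second Cdkn2c start has a window at 42.8% that held none of the motifs searched. Windows of genes that did not fall were rich in G and C as well, at 65.2% for Btg1, 73.6% for Tob1, 60.4% for Tob2, 59.6% for Ccng2 and 54.0% and 64.8% for the 2 Cdkn1a starts. GGGCGG was present in at least 1 window of each of the 9 genes with a window and in 32.74% of all windows, so it did not set apart the genes that fell. CCAAT was present in the windows of Cdkn1b, Cdkn2d, Btg2, Btg1 and Tob1, and in 33.85% of all. The Btg2 window held TGACGTCA at 166 to 159 bases before the start, a motif found in 1.55% of all windows. The Btg1 window held TATAAA at 26 to 21 bases and TGTTTAC at 204 to 198 bases before the start, motifs found in 12.37% and 3.17% of all, and Tob1 also held TATAAA. CCACNCCC was found in the windows of Cdkn2c and Ccng2 and in 15.87% of all. The GATA, E2F and E-box motifs were in none of the 11 windows listed for 9 of the genes, and in 9.99%, 4.28% and 6.02% of all. Cdkn1c has no window here. These matches describe letters and no binding was measured.

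Among the CIP/KIP inhibitors, Cdkn1b, which encodes p27, had 264 and 248 CPM in fl/fl against 171 and 170.5 CPM in KO. The KO libraries lay close together and well below either fl/fl library. The mean went from 256 ± 11.5 to 171 ± 0.687 CPM (SD, n = 2 per genotype), a log2 fold change of -0.58 (SE 0.07, edgeR adjusted p = 2.0e-05), or 0.668 of the fl/fl level. Over all genes tested, 10.5% had a fold change at or below this one.

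Cdkn1a, which encodes p21, the inhibitor induced by p53, was far less abundant. Its counts were 92 and 80 in fl/fl and 125 and 91 in KO, which gave 13.0 and 11.6 CPM against 17.6 and 13.4 CPM. The second KO library stood just above the first fl/fl library, and the change of 0.33 on the log2 scale was not called (SE 0.26, 95% interval -0.22 to 0.88, edgeR adjusted p = 0.44). The gene 1700023B13Rik overlaps 7.7% of its exon length on the opposite strand and had 0 to 18 counts, so with the strand setting unknown a few reads cannot be assigned to either.

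Cdkn1c, which encodes p57 and is expressed from the maternal allele, had 0 counts in every library. A count of 0 allows up to 3 counts, which is 0.421 to 0.441 CPM depending on the library, so a level below that was not detectable at this depth. The antisense gene Gm44732, with 0 or 1 count, overlaps 30.7% of its exon length, and reads of the shared stretch may have been assigned to neither gene, so the limit covers assigned reads only. It could not be tested and is left out of every count above.

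Within the CIP/KIP genes, Cdkn1a took 4.70% and 4.47% of the sum of Cdkn1a and Cdkn1b in fl/fl (exact 95% binomial intervals 3.81 to 5.73% and 3.56 to 5.53%). In KO it took 9.29% and 7.28% (7.79 to 11.0% and 5.90 to 8.86%). The genotypes did not overlap in this share, which does not depend on library scaling but can depend on GC content. With a GC content offset the log2 fold changes were 0.19 for Cdkn1a and -0.44 for Cdkn1b, against 0.33 and -0.58 in the main fit. With 2 libraries against 2, an exact permutation test of such a share or ratio cannot go below a two-sided p of 0.333.

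The INK4 inhibitors fell together. Cdkn2d, which encodes p19 (INK4d), had 244 and 248 CPM in fl/fl and 171 and 172 CPM in KO. No fl/fl library came near a KO library: the means were 246 ± 2.35 and 172 ± 0.665 CPM (SD, n = 2 per genotype), with a log2 fold change of -0.52 (SE 0.07, edgeR adjusted p = 5.3e-05).

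Cdkn2c, which encodes p18 (INK4c), had 219 and 196 CPM in fl/fl and 144 and 159 CPM in KO. The replicates were further apart than those of Cdkn2d, without overlap of the genotypes. Its means were 207 ± 15.7 and 151 ± 10.1 CPM (SD, n = 2 per genotype), and the log2 fold change was -0.45 (SE 0.08, edgeR adjusted p = 8.8e-04). With a GC content offset its log2 fold change was -0.69.

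The balance of the INK4 genes was alike in all libraries. Cdkn2c took 47.2% and 44.2% of the sum of Cdkn2c and Cdkn2d in fl/fl and 45.7% and 47.9% in KO, and the exact intervals of KO (43.6 to 47.8% and 45.8 to 50.0%) overlapped those of fl/fl (45.5 to 48.9% and 42.5 to 46.0%). The other INK4 genes, Cdkn2a and Cdkn2b, were listed with 0 counts in all 4 libraries. Summed over the CDK inhibitors among the genes described, the level was 740.0 and 703 CPM in fl/fl and 505 and 515 CPM in KO.

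**Figure D2:**
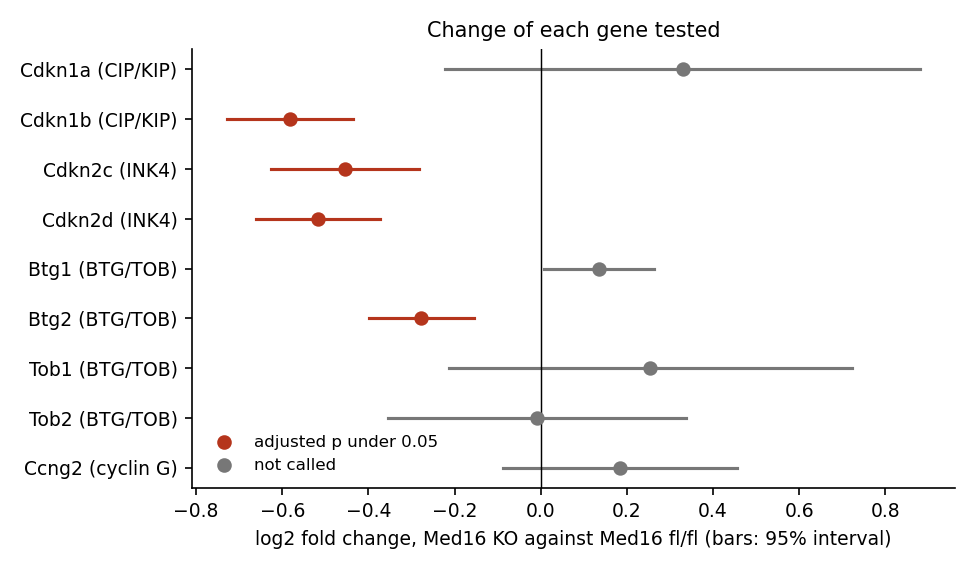
Log2 fold change of Med16 KO against Med16 fl/fl for the 9 genes tested (points) with its 95% interval (bars). Red marks an adjusted p under 0.05: Cdkn1b at -0.58, Cdkn2d at -0.52, Cdkn2c at -0.45 and Btg2 at -0.28, while the other 5 were not called.

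In the BTG/TOB family Btg2 fell, while its close relative Btg1 was not called. Btg2, a target of p53 and an early response gene, was the most abundant of the genes described in CPM, with 499.7 and 457 CPM in fl/fl and 399.7 and 390.1 CPM in KO. The fl/fl replicates were further apart than those of KO, and the genotypes did not overlap. The log2 fold change was -0.28 (SE 0.06, edgeR adjusted p = 0.0028). Without fl/fl replicate 1 it was -0.22 and no longer called (edgeR adjusted p = 0.067).

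Btg1, which is high in quiescent cells, had 274 and 265 CPM in fl/fl and 295 and 297 CPM in KO. The KO libraries were the higher ones, by a small step. Its log2 fold change of 0.14 was not called (SE 0.06, 95% interval 0.01 to 0.26, edgeR adjusted p = 0.14), but the call depended on scaling. It reached the threshold at 0.19 when libraries were scaled by size alone, at 0.18 after a length offset and at 0.27 after a GC content offset (edgeR adjusted p = 0.040, 0.046 and 0.0052, and 6.9e-04 with the GC content offset and the replicate block together), with a range of adjusted p over the 13 alternatives of 6.9e-04 to 0.86. Btg1 and Med16 both lie on chromosome 10.

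The share that Btg1 took of the sum of Btg1 and Btg2 counts needs no scaling. It was 35.4% and 36.7% in fl/fl (exact 95% binomial intervals 34.1 to 36.7% and 35.4 to 38.1%) and 42.5% and 43.3% in KO (41.1 to 43.9% and 41.8 to 44.7%). The intervals of the genotypes did not meet, and those within a genotype overlapped. These intervals cover counting error only.

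**Figure D3:**
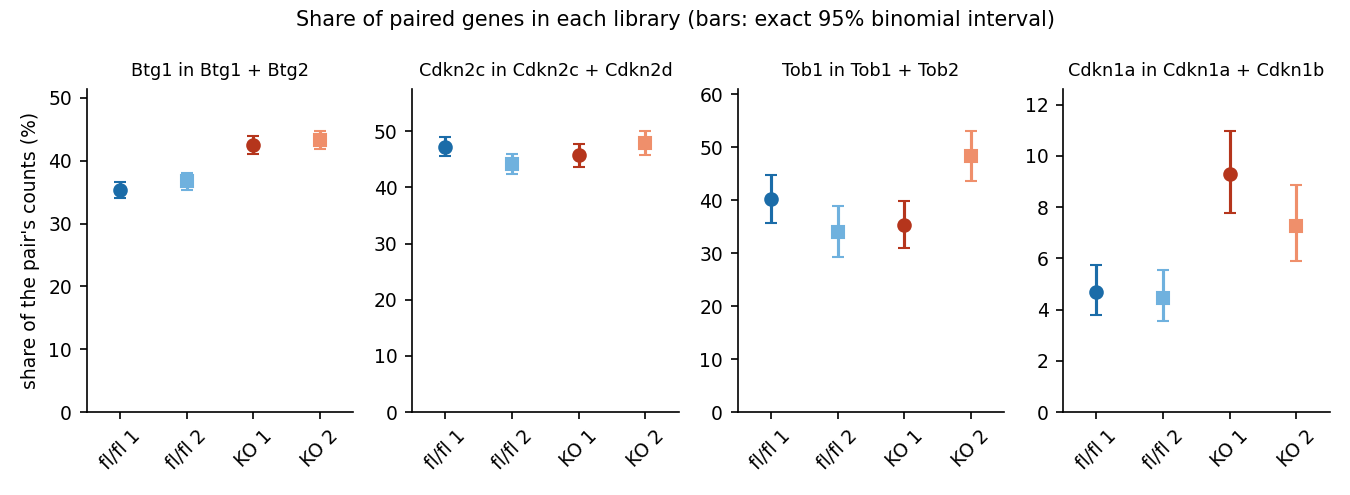
Share (%) of the first gene in the summed counts of a pair of relatives, 1 point per library with its exact 95% binomial interval. The Btg1 share was 35.4% and 36.7% in fl/fl against 42.5% and 43.3% in KO, the Cdkn1a share was 4.70% and 4.47% against 9.29% and 7.28%, and the Cdkn2c and Tob1 shares overlapped between genotypes.

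The TOB genes were less abundant than Btg1 and Btg2, and neither was called. Tob1 had 26.6 and 19.0 CPM in fl/fl and 23.0 and 31.5 CPM in KO. Its libraries spread by 1.40-fold within fl/fl and 1.37-fold within KO, and the genotypes overlapped. The log2 fold change of 0.25 had a 95% interval of -0.21 to 0.72 (edgeR adjusted p = 0.48).

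Tob2 had 39.6 and 36.8 CPM in fl/fl and 42.3 and 33.7 CPM in KO. The KO libraries stood on either side of the fl/fl libraries, and the log2 fold change was -0.01 (95% interval -0.35 to 0.34, edgeR adjusted p = 0.98). The antisense gene Gm49476, with 22 to 31 counts, covers 4.3% of its exon length.

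Ccng2, an atypical cyclin that is raised in cells leaving the cycle and is a known FOXO target, had 51.1 and 54.5 CPM in fl/fl and 63.9 and 56.0 CPM in KO. The KO libraries were above the fl/fl libraries but the second KO library only just so. The change of 0.18 on the log2 scale was not called (SE 0.13, 95% interval -0.09 to 0.46, edgeR adjusted p = 0.37).

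Per kilobase of annotated exon, which lets genes be set against each other, the order in fl/fl was Btg2 at 174 CPM per kb, Cdkn2d at 156, Cdkn2c at 77.2, Cdkn1b at 56.2, Btg1 at 51.1, Tob1 at 9.97, Ccng2 at 9.68, Tob2 at 5.74 and Cdkn1a at 3.47. Of these neighbours, Tob1 and Ccng2 overlapped across the fl/fl libraries and the others did not. In KO, Btg2 stood at 144 CPM per kb, Cdkn2d at 109, Cdkn2c at 56.4, Btg1 at 56.1, Cdkn1b at 37.6, Tob1 at 11.9, Ccng2 at 11.0, Tob2 at 5.70 and Cdkn1a at 4.35. Cdkn1b was thus above Btg1 in both fl/fl libraries and below it in both KO libraries, and Cdkn2c and Btg1 overlapped in KO, as did Tob1 and Ccng2. Lengths came from an annotation of build GRCm38, so this order is approximate where genes lie close.

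The kinases and cyclins that the inhibitors bind did not move as a block. For this list, the lists below and the marker lists above, the shares over all genes tested were 9.89% called lower and 8.5% higher. The share among genes as abundant as theirs was not computed, so no excess is read from the counts. Of 13 genes in the kinase and cyclin list, 12 were tested, 4 were called lower and 2 higher. The median change was -0.17 on the log2 scale. The INK4 targets Cdk4 and Cdk6 were the 2 that rose, Cdk4 from 99.7 ± 8.54 to 137 ± 9.76 CPM and Cdk6 from 61.6 ± 4.43 to 85.5 ± 2.91 CPM (SD, n = 2 per genotype), with log2 fold changes of 0.45 and 0.47; without fl/fl replicate 2 none of the list was called higher. Those lower were Ccne2 at -0.81 and Ccna2 at -0.54, which encode the S phase cyclins E2 and A2, Ccnb2 at -0.32 and Cdk1 at -0.23. In raw counts, Cdkn2c and Cdkn2d together had 272 and 292 counts per 100 counts of Cdk4 and Cdk6 in fl/fl, and 148 and 143 in KO. The ratio was therefore lower in both KO libraries, at 0.517 of its fl/fl mean. The summed neutrophil, monocyte and platelet markers given above were higher in the same libraries, the monocyte sum largely through Lyz2. The part of these cells in this ratio was not tested. Cdkn1b had 206 and 193 counts per 100 counts of Cdk2 in fl/fl and 162 and 139 in KO.

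Genes that control the turnover of p27 and p21 protein were lower or not called. Of 18 symbols in that list, 16 were listed and tested, with 8 lower and none higher and a median change of -0.24 on the log2 scale (5 lower without fl/fl replicate 1 and 4 without fl/fl replicate 2). The F-box gene Skp2, whose ligase marks p27 for destruction, had 24.8 and 26.0 CPM in fl/fl and 15.4 and 14.1 CPM in KO (log2 fold change -0.78, SE 0.21, edgeR adjusted p = 0.016), and its cofactor Cks1b was at -0.42. Pcna, Dtl and Cul4a, which act in the destruction of p21 on chromatin, were called lower at -0.42, -0.57 and -0.40. Other ligase genes of the list were not called: Ddb1 at 0.06, Cul4b at 0.17, Cul1 at -0.13 and Rbx1 at -0.11. Rnf123, the most abundant gene of the list, was called lower at -0.31. Transcript levels of this kind do not give the amount of p27 or p21 protein, which was not measured.

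Among the deadenylase genes and BTG/TOB partners, 6 of 16 were lower and none higher (median log2 fold change -0.20). Cnot7 and Cnot8, the catalytic subunits that BTG and TOB proteins bind, were at 0.12 and 0.07 on the log2 scale, neither called. The poly(A) binding protein gene Pabpc1 was at -0.17 and Cnot4 at -0.90, past the threshold. With a GC content offset, or without fl/fl replicate 2, 3 of the 16 were lower, and without either KO library 1 was higher.

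Of the regulators known to act on the genes described, 4 of 16 tested were lower and 2 higher (median log2 fold change 0.16). Klf1, the erythroid activator, fell by 0.60 on the log2 scale, Foxo3 by 0.56, Mdm4 by 0.59 and Gata1 by 0.29. Klf4 rose by 1.03, and Smad3 was at 0.68 with an edgeR adjusted p = 0.0497, just under the threshold. Of these regulators, 1 was called higher without either fl/fl library and 4 without KO replicate 1. Trp53, at 0.26, was not called. Btg3, Btg4, Ccng1, Ccni and Cdkn3, relatives or namesakes outside the 10 genes, were mixed: Ccni was called higher at 0.22, Cdkn3, which encodes a phosphatase of CDKs, was called lower at -0.42, Btg3 and Ccng1 were not called at -0.41 and -0.07, and Btg4 had at most 2 counts in a library. The calls of Ccni and Cdkn3 were both lost without either fl/fl library; without KO replicate 2, none of these relatives was higher and 2 were lower.

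Counts of Cdkn1b were set against those of Klf1 and Foxo3, a comparison chosen after the values were seen. There were 41.1 and 40.0 counts of Cdkn1b per 100 counts of Klf1 in fl/fl and 41.0 and 41.3 in KO. Per 100 counts of Foxo3 there were 45.5 and 43.6 in fl/fl and 43.7 and 44.1 in KO, so both ratios overlapped between genotypes. The other genes that fell did not all do so: Cdkn2d was higher in both KO libraries per count of Klf1 and of Foxo3, at 1.061 and 1.031 of the fl/fl mean ratio, and Btg2 likewise, at 1.254 and 1.219. Cdkn2c was higher per count of Klf1, at 1.11, and overlapped per count of Foxo3. Against the erythroid marker Slc4a1 the picture differed. Per 100 counts of Slc4a1 there were 1.99 and 1.86 counts of Cdkn1b in fl/fl and 1.70 and 1.71 in KO, a ratio lower in both KO libraries. Per 100 counts of Gata1 there were 102 and 100.4 in fl/fl and 79.3 and 86.7 in KO. Cdkn2d was also lower in both KO libraries against both of these genes, Cdkn2c overlapped against both, and Btg2 overlapped against Gata1 and was higher against Slc4a1. The direction depends on the gene chosen. Slc4a1 had a log2 fold change of -0.41, a smaller fall than that of Cdkn1b. The erythroid markers Epb42 and Ermap, at -0.73 and -0.69, fell further than Cdkn1b, and ratios to them were not computed.

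The proliferation genes were lower at the same time. Of 18, 12 were called lower and none higher, with a median change of -0.34 on the log2 scale, and of 17 retinoblastoma and DREAM genes, 9 were lower and none higher (median -0.37; 1 higher without KO replicate 2). At the assumed coefficient of variation of 0.2, 0 of the kinase and cyclin, turnover, deadenylase and proliferation genes were called, with 1 regulator, 1 retinoblastoma or DREAM gene and 1 immediate early gene. The proliferation marker gene Mki67 was at -0.77, beside -0.58, -0.52 and -0.45 for the CDK inhibitors that fell. Per 100 counts of Mki67 there were 5.78 and 5.23 counts of Cdkn1b in fl/fl and 6.22 and 6.31 in KO, 4.78 and 4.14 against 5.24 and 5.87 of Cdkn2c, and 5.35 and 5.23 against 6.22 and 6.38 of Cdkn2d. Relative to Mki67 the 3 inhibitors were therefore higher in both KO libraries, but Mki67 had the largest fall of the 18 and the direction depended on the gene chosen. Against each of the 18 proliferation genes in turn, Cdkn1b was higher in both KO libraries for 2, Mki67 and Cenpf, lower for 14 and overlapping for 2. Cdkn2c was higher for 5, lower for 9 and overlapping for 4, and Cdkn2d was higher for 4, lower for 12 and overlapping for 2.

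**Figure D4:**
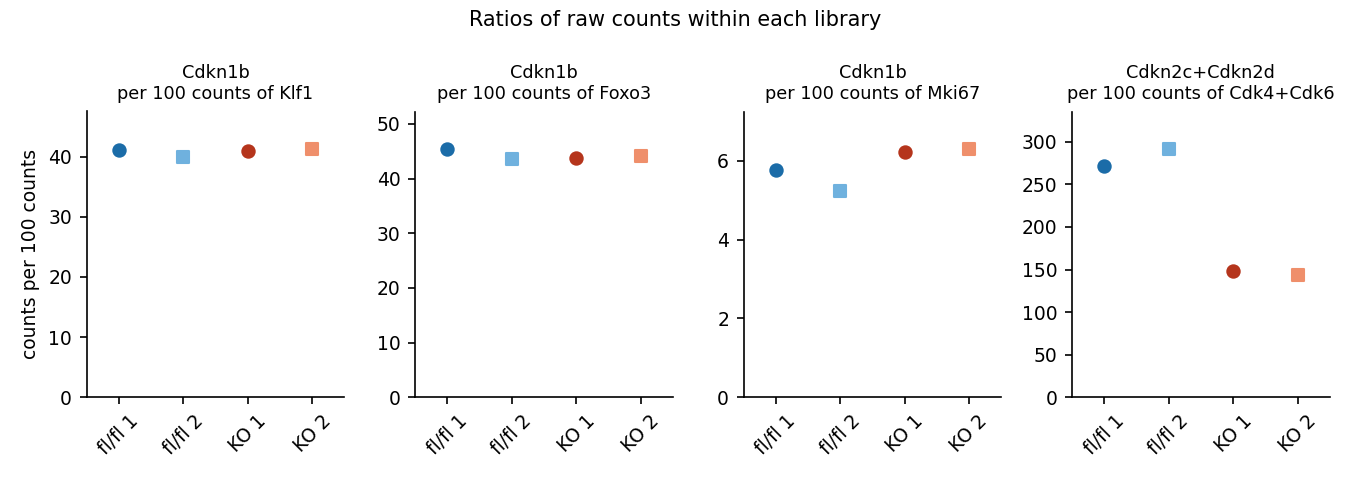
Counts of a gene or pair per 100 counts of another within each library (each axis starts at 0), 1 point per library. Cdkn1b per Klf1 or Foxo3 overlapped between genotypes, Cdkn1b per Mki67 was 5.78 and 5.23 in fl/fl against 6.22 and 6.31 in KO, and the INK4 pair per Cdk4 and Cdk6 was 272 and 292 against 148 and 143. The ratios were chosen after the values were seen. Cdkn1b per Gata1 or Slc4a1, not drawn, was lower in both KO libraries. Against 18 proliferation genes it was lower for 14, higher for 2 and overlapping for 2.

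Btg2 is itself an early response gene, but its direction was not that of the immediate early genes, a list kept as a quality check. Of 19 such genes, 11 were higher and none lower, with a median log2 fold change of 0.42 (7 higher with a GC content offset). Btg2 had 147 and 133 counts per 100 counts of Fos in fl/fl and 84.5 and 82.0 in KO. Against Jun it had 96.2 and 94.3 counts per 100 in fl/fl and 56.4 and 52.4 in KO, so both ratios were lower in both KO libraries. The cause of the higher immediate early genes, and the part of handling or of other cell types in these ratios, was not tested.

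**Figure D5:**
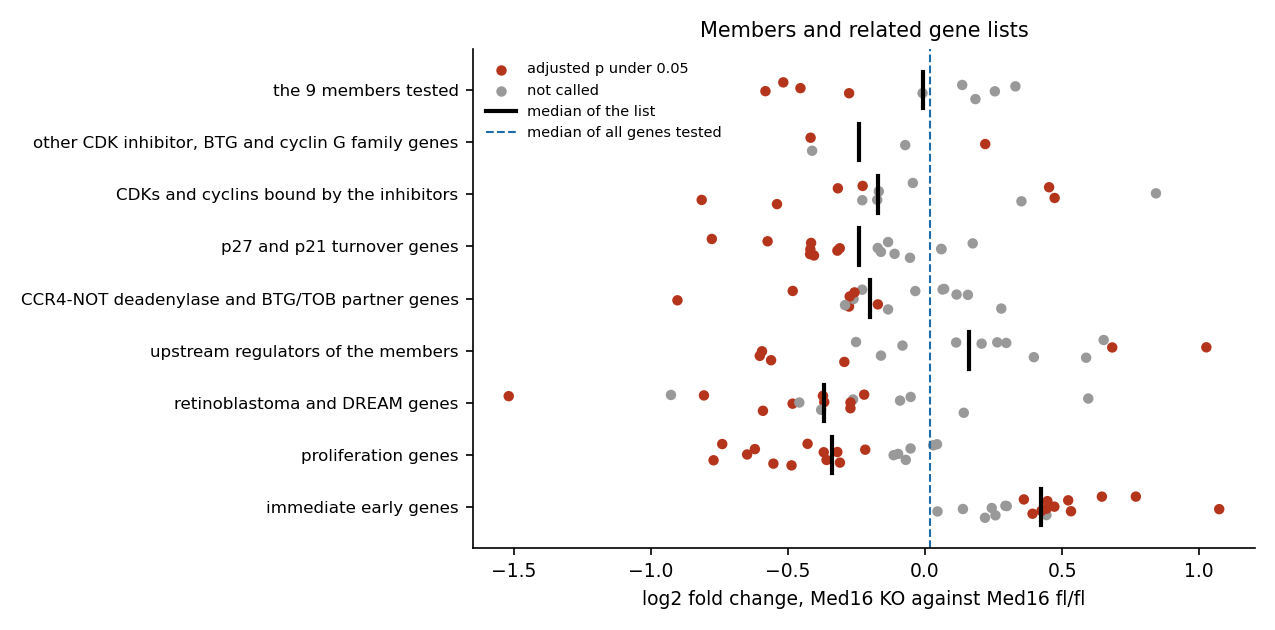
Log2 fold change of Med16 KO against Med16 fl/fl for each tested gene of the 9 members and of 8 related gene lists (vertical scatter is for legibility), with red for an adjusted p under 0.05, a black bar for the median of the list and a dashed line for the median of all genes tested, 0.02. Medians were -0.34 for proliferation genes, -0.24 for turnover genes and 0.42 for immediate early genes.

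Over the 4 libraries, the genes whose log2 CPM followed that of Cdkn1b most closely were Gnal, Marchf3 and Rlf, among 10049 genes with a mean of at least 5 CPM. Their Euclidean distances, after centring each gene on its mean, were 0.0210, 0.0212 and 0.0294. They had log2 fold changes of -0.59, -0.58 and -0.58, and 4 libraries are few for such a ranking.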

How the data were processed

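The authors deposited raw counts for each gene, in a table for each library. The submitters' processing notes name build GRCm39, the aligner HISAT2 2.1.0, the counter HTSeq 0.12.4, and FastQC 0.11.7, HOMER and DESeq2; the sources used here give neither the strand setting nor the annotation release. The 5 rows that name no gene, of which reads without a feature were 35.8 to 36.7% of all reads, were left out. Reads not aligned were 1.05% and 0.826% in fl/fl and 2.69% and 3.27% in KO. The design cannot separate this difference from genotype.

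The counts were compared in R 4.3.3 with edgeR 4.0.16 (filterByExpr, TMM, genotype as the only term, quasi-likelihood test, Benjamini-Hochberg over 13052 genes). The common biological coefficient of variation was 0.125. An SE is the size of the log2 fold change divided by the square root of F, and 95% intervals use 15.1 degrees of freedom. Alternatives were DESeq2 1.42.0 (with a local dispersion trend), other scaling, no filter, a replicate block, each library left out, an assumed coefficient of variation of 0.2, and lowess offsets for GC content and transcript length (GENCODE M21, GRCm38, matching 98.4% of genes tested). The fit at 0.2 gave every gene that value and used the edgeR likelihood ratio test in place of the quasi-likelihood test. On simulated counts over 12754 genes for KO against fl/fl, the main fit recovered 23.1% of 65 genes changed 1.5-fold. It recovered 71.9% of 64 changed 2-fold and 97.0% of 66 changed 4-fold. Of its 136 calls, 8.09% were false, more than the adjusted p threshold of 0.05 allows on average. Every simulated gene was given the same common dispersion. The recovery is thus an average over abundances and does not give that for genes as abundant as the members called.

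Genes named were the 10 members, Med16, the 3 genes of each list with the smallest adjusted p and the most abundant one where a result turned on them, genes and markers at 0, and the 3 closest in pattern to the member with the smallest adjusted p. Other list genes, and all ratios of counts, were chosen after their values were seen. Members and lists were chosen with earlier results of these data known. Some list genes are not reported here.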

Additional observations from a re-analysis of the deposited data

How the results depend on the processing

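The log2 fold changes of Cdkn1b, Cdkn2c, Cdkn2d and Btg2 were negative under all 13 alternatives, within -0.64 to -0.44, -0.69 to -0.39, -0.70 to -0.46 and -0.35 to -0.22. At a coefficient of variation of 0.2 assumed for every gene, the likelihood ratio test called 620 genes, with 0 members lower and 0 higher. In that test the adjusted p of these 4 genes was 0.286 to 0.681. The number of members called higher was 1 (Btg1) with library size only, a GC content offset, a transcript length offset, or a GC content offset with the replicate block. Library size as the only scaling moved the share called higher among all called genes from 46.2% to 56.4%, and a GC content offset to 38.8% (729 higher in place of 1109). Fits without 1 library called 1158 to 3998 genes over all, against 2400. The lone library of a genotype is then assumed to vary like the other genotype. Members called lower were 3 to 4 in those fits. Values near 0 changed sign: Tob2 was at 0.046 with library size only and ranged from -0.20 to 0.13 without 1 library, and Tob1 ranged from -0.00069 to 0.51 without 1 library. The cause was not tested.

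Replicate numbers are shared between genotypes, but deviations of same-numbered libraries did not go together (Pearson's r = -0.0078 across 13052 genes, which are not independent replicates). With a replicate block 2767 genes were called, 4 of them members, and no member's call changed. Of 208 counts of called genes in the related lists under alternatives, 169 stayed within 1.5 times. At this depth, the 95% interval of Tob2 included a fall as large as that of Btg2 but not those of the 3 CDK inhibitors. The lower bounds of Cdkn1a, Tob1 and Ccng2 lay above all 4 called log2 fold changes, and the upper bounds of Cdkn1a and Tob1 allowed a rise larger in size than any called fall.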
